A study of Homo sapiens with 8 samples.

Results

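The amino acid transporter families SLC1, SLC3, SLC6, SLC7, SLC36, SLC38 and SLC43 were followed in human cells that express an RNA-binding protein. Members were chosen by gene symbol among the genes of these families on the array design, with no cut on signal. The choice was made with earlier results of these data known, and some genes of these families are not reported here. The set held 59 genes with 86 probes out of 36337 gene names on the array, and 19 of the 59 had more than 1 probe. They were 7 genes of SLC1, 2 of SLC3, 19 of SLC6, 12 of SLC7, 4 of SLC36, 11 of SLC38 and 3 of SLC43, together with SLC7A6OS. SLC7A6OS lies next to SLC7A6 and does not encode a carrier.

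The cells were FT293 cells, a HEK293 embryonic kidney line in which the Flp-In T-REx system places a transgene at a single genomic site and tetracycline switches it on. The 4 lines expressed green fluorescent protein (GFP) alone, GFP-HuR, GFP-TIA1 or GFP-TIAR, so every line carried a GFP transgene, and all lines kept their own copies of the genes of these proteins. RNA was taken on day 3 of tetracycline, and 2 biological replicates per line were each hybridized to a one-colour array. The comparisons asked how the RNAs of cells with more TIA1 or TIAR differ from those of cells with more HuR, another RNA-binding protein, and from those of cells with GFP alone. For the second TIA1 replicate, the source label reads GFP-TIA2 while its other labels read GFP-TIA1, and the lines are named by their labels throughout.

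Amino acids do not cross membranes unaided, and cells take them up and exchange them through carriers of the solute carrier (SLC) families. SLC1 and SLC38 carriers use the sodium gradient to bring in glutamate, glutamine and other neutral amino acids, and some SLC36 carriers use protons. SLC43 and many SLC7 carriers move large neutral or cationic amino acids down their gradients or in exchange for others. SLC7 light chains reach the membrane bound to an SLC3 heavy chain, and SLC6 carriers take up neurotransmitters, osmolytes and amino acids with sodium and chloride. Not all members carry amino acids as their main substrate. SLC6A2, SLC6A3 and SLC6A4 take up noradrenaline, dopamine and serotonin, SLC6A8 takes up creatine, SLC6A12 betaine and GABA, SLC6A6 taurine, and SLC43A3 nucleobases.

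When amino acids run short, the kinase GCN2 raises translation of the transcription factor ATF4, which binds C/EBP-ATF elements near genes of amino acid synthesis and uptake. The core of this element, TGATGNAA on either strand, was searched from 250 bases before to 50 bases after each start site in the RefSeq promoter table (GRCh38.p14). It stood in 6 of 67 windows of the 45 members in that table (8.96%) and in 3.62% of all 35116 windows, and 14 members had no window. The matches are shown because they fall in 6 different genes, among them carriers whose signals are given in full further on. They are printed in the direction of the gene, with the matched bases in capitals, and describe these letters only.
SLC1A4: cggctcccgtTTGCATCAtctccagccg
SLC1A3: aggaaatgacTGATGCAAagcagggtta
SLC3A2: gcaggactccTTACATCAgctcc
SLC38A1: cagacccgaaTGATGAAAagggatcagc
SLC7A1: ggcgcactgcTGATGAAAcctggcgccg
SLC1A5: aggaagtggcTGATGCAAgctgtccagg
The printed stretches lie at chr2:64989382-64989409 for SLC1A4, chr5:36596358-36596385 for SLC1A3, chr11:62881726-62881748 for SLC3A2, chr12:46266503-46266530 for SLC38A1, chr13:29595664-29595691 for SLC7A1 and chr19:46784894-46784921 for SLC1A5, the last 3 on the minus strand. For SLC1A5, SLC1A3 and SLC3A2, 1 of 3 listed start sites had the match. For SLC1A4 and SLC38A1 it was 1 of 2, and SLC7A1 had 1 listed start site, with the match.

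A value below is the log2 processed signal minus its array's 75th percentile, called log2 signal here. Each gene is represented by its probe with the highest mean over the 8 arrays, and levels were not compared between genes, since probes differ in brightness. A member entered the test when its probe was flagged by the scanner software as well above background in both replicates of 1 or both lines of the pair. It was called higher or lower at a fold change of at least 2 with a Benjamini-Hochberg adjusted p under 0.05 from limma over all probes tested. In bulk RNA of this kind, fewer cells of a type and less RNA per cell cannot be told apart.

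The array of GFP replicate 1 stood apart. On it, 86.0% of 50599 probes were well above background, against 53.2 to 58.5% on the other 7 arrays, and its mean local background was 90.0 against 37.4 to 43.5. Of the members, 54 were well above background on GFP replicate 1, against 36 on GFP replicate 2 and 40 to 43 on the arrays of the other lines. There were 11 members above background on that array only, among them SLC6A11, SLC6A20 and SLC7A13, and 3 on no array. A further 10 were above background on some arrays in another pattern, and 35 of the 59 on all 8 arrays. Over these 35, replicates differed by more than 2-fold for 5 members in GFP-expressing cells, 0 in HuR-, 1 in TIA1- and 1 in TIAR-expressing cells. SLC1A7, a glutamate transporter, had a log2 signal of -0.81 on GFP replicate 1 and of -5.27 to -3.84 on the other arrays, and SLC1A3, the glial glutamate transporter, had 0.66 there and 1.90 to 2.47 elsewhere. Every comparison with GFP-expressing cells rests on replicates that differ in this way. Per the file headers, the GFP and TIA1 arrays lay in one row of the slide and the HuR and TIAR arrays in the other, so in TIA1 against HuR, TIAR against TIA1 and both comparisons of HuR and TIAR with GFP the row and the line cannot be told apart.

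Of 7 genes listed as HEK293-like markers, all 7 were tested. Against HuR-expressing cells, 0 were called higher and 1 lower in TIA1-expressing cells, and 0 higher and 2 lower in TIAR-expressing cells. The neurofilament gene NEFL was called in both (log2 fold change of -1.39 and -1.68) and NEFM in the TIAR line (-1.05), while the other 5 lay between -0.56 and 0.60 and were not called. Of 7 markers of other cell types, 3 were tested in any comparison. The summed relative signal of all 7 was 5.22 on GFP replicate 1, 0.25 on GFP replicate 2, 0.30 and 0.33 in HuR-, 0.61 and 0.54 in TIA1- and 0.66 and 0.55 in TIAR-expressing cells. The liver marker ALB was called higher in both TIA lines than in HuR-expressing cells (2.82 and 2.62). It was not above background on HuR replicate 1, so it entered these tests only through the TIA lines and its calls are descriptions. The fibroblast marker COL1A1 was called higher in the TIAR line (1.01), and COL3A1 was well above background on no array. The part of these markers in the results was not tested. TIAL1, the gene of TIAR, had log2 signals of 4.89 and 5.01 in TIAR-, 1.65 and 1.76 in TIA1-, 2.48 and 2.53 in HuR- and 2.06 and 2.49 in GFP-expressing cells. The TIA1 probe had -0.92 and -0.97 in TIA1-, -1.75 and -1.34 in TIAR-, -0.02 and 0.07 in HuR- and -0.04 and 0.20 in GFP-expressing cells. The probe of ELAVL1, the gene of HuR, had 0.35 and 0.43 in HuR-expressing cells and 1.09 and 0.94 in GFP-expressing cells. The transgene sequences are not given in the sources used here, so it was not checked whether the TIA1 and ELAVL1 probes can measure them.

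In TIA1-expressing cells, 5 of 41 members tested were called lower (12.2%) and 3 higher (7.32%) than in HuR-expressing cells, against 4.67% lower and 8.55% higher of all 21223 genes tested. The 5 lower members were SLC38A10, SLC6A9, SLC7A5, SLC36A4 and SLC1A5, and the 3 higher ones were SLC38A4, SLC38A3 and SLC6A12. SLC38A4 and SLC6A12 entered the test only because both arrays of the TIA lines were above background, here and in the TIAR line, so their calls are descriptions. At an adjusted p under 0.05 and any fold, 13 members were lower (31.7%) and 7 higher (17.1%), against 17.0% and 24.5% of all genes. The median log2 fold change was -0.13 over the members and 0.09 over all genes tested. Without HuR replicate 1, the called members were SLC38A10 and SLC6A9 only. With quantile normalization 5 members were called lower and 1 higher, and with normexp background correction 3 lower and 0 higher. Shares of all genes were not counted in these settings, here or in the TIAR line.

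In TIAR-expressing cells, 2 of 41 members were called lower than in HuR-expressing cells (4.88%, SLC38A10 and SLC36A4) and 4 higher (9.76%, SLC38A4, SLC6A12, SLC38A3 and SLC6A13). Of all 21503 genes tested, 2.75% were called lower and 7.47% higher. At an adjusted p under 0.05 and any fold, 7 members were lower (17.1%) and 9 higher (22.0%), against 11.9% and 18.9% of all genes, and the median log2 fold change was -0.11 over the members and 0.07 over all genes. Both comparisons use the same HuR arrays. Without HuR replicate 1, 0 members were called, and without HuR replicate 2, 1 was, while quantile normalization left 2 lower and 1 higher and normexp background correction 2 lower and 0 higher. Between the TIA lines, 1 of 40 members was called, SLC6A9, which was higher in TIAR- than in TIA1-expressing cells (2.5%, against 1.33% higher and 1.02% lower of all 20763 genes). At any fold, SLC6A9 and SLC6A13 were higher (5.0%) and 0 members lower, against 1.83% and 1.57% of all genes.

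**Figure D1:**
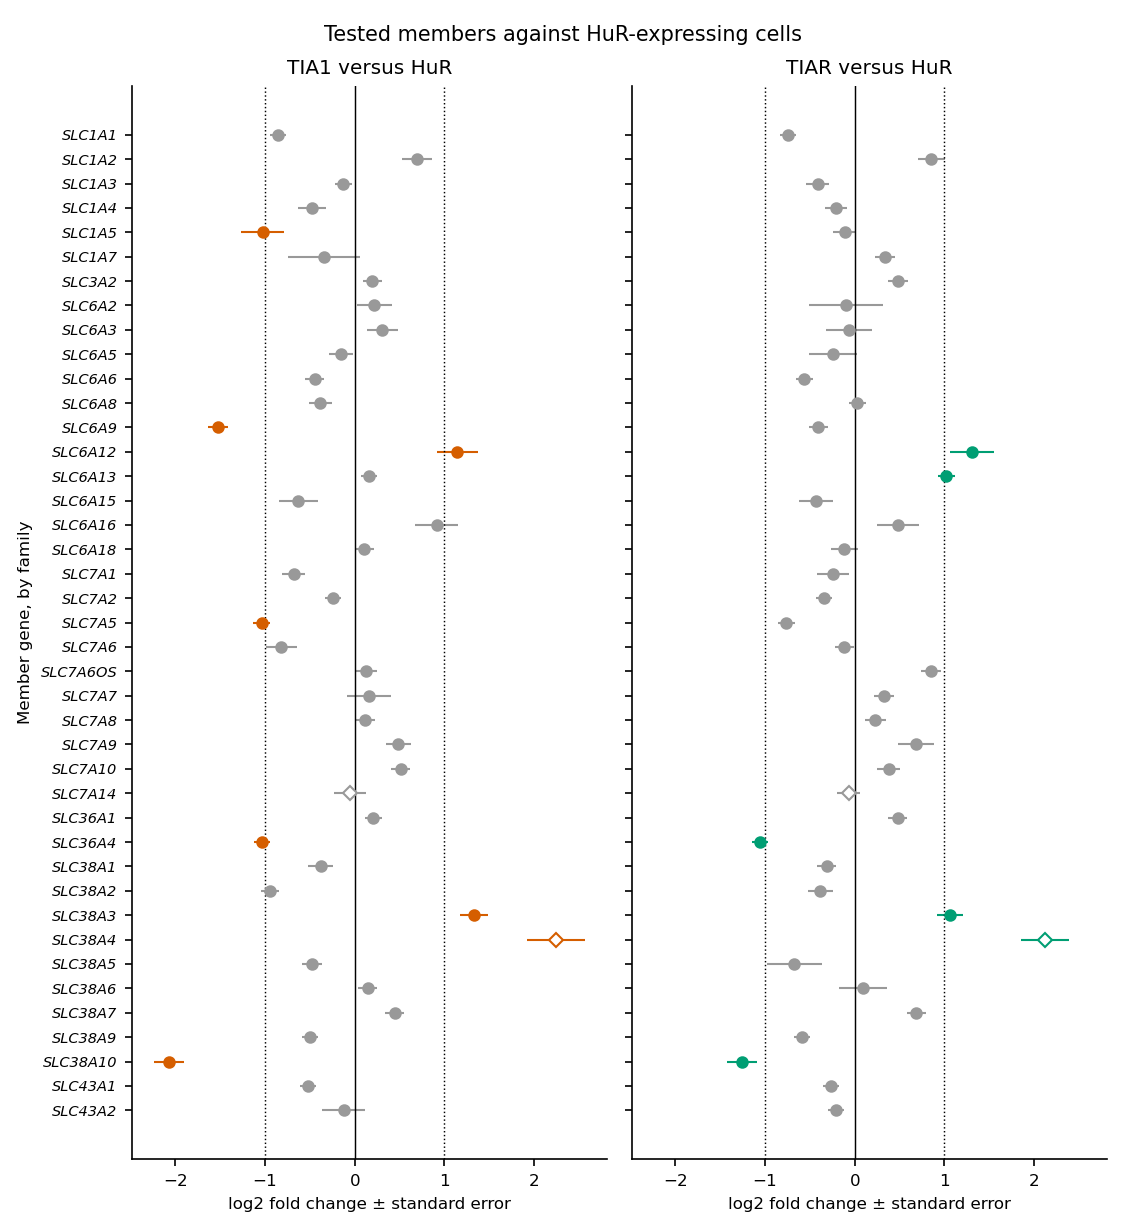
Log2 fold change with its standard error for the 41 tested members, ordered by family, in TIA1- (left) and TIAR-expressing cells (right) against HuR-expressing cells. Coloured points were called, grey points were not, open diamonds mark members for which neither array of 1 of the lines was well above background, and dotted lines mark a 2-fold change. SLC38A10 lies lowest in both panels, at -2.07 and -1.26.

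Among the SLC1 carriers, 6 of 7 were tested and SLC1A5 was called. SLC1A5 (chr19:47278899-47278958 for the probe on hg19), the glutamine transporter ASCT2 whose promoter match is printed above, had log2 signals of 2.96 and 3.0 in HuR-expressing cells, 2.28 and 1.63 in TIA1-, 3.0 and 2.73 in TIAR- and 2.37 and 2.75 in GFP-expressing cells. Both TIA1 arrays lay below all other arrays, and they differed from each other more than the arrays of the other lines did. The log2 fold change against HuR-expressing cells was -1.02 in TIA1-expressing cells (standard error 0.24, adjusted p = 0.032) and -0.11 in TIAR-expressing cells (standard error 0.13, adjusted p = 0.54). Without TIA1 replicate 2, the first of these was -0.70 and no longer called. TIAR- against TIA1-expressing cells gave 0.91 (standard error 0.26, adjusted p = 0.13).

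SLC1A1, which takes up glutamate and aspartate, was lower in both TIA lines without reaching 2-fold. Its log2 signals were 0.59 and 0.61 in HuR-, -0.23 and -0.28 in TIA1-, -0.12 and -0.16 in TIAR- and 0.65 and 1.01 in GFP-expressing cells. All arrays of the TIA lines lay below all others, at log2 fold changes of -0.86 (standard error 0.09, adjusted p = 0.0055) and -0.74 (0.09, 0.011) against HuR-expressing cells. SLC1A2, another glutamate transporter, went the other way at a low signal, by 0.69 (adjusted p = 0.036) and 0.86 (adjusted p = 0.024). SLC1A3, SLC1A4 and SLC1A7 did not pass the threshold at any fold in either comparison with HuR. Both tested probes of SLC1A7 gave opposite directions in TIA1- against HuR-expressing cells, -0.34 and 0.91, neither of them called. SLC1A6 was above background on GFP replicate 1 only.

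SLC3A2, the CD98 heavy chain that carries SLC7 light chains to the membrane, was not called in any comparison. Its log2 signals were 2.35 and 2.53 in HuR-, 2.64 and 2.64 in TIA1-, 2.96 and 2.89 in TIAR- and 1.72 and 2.55 in GFP-expressing cells. The TIAR arrays were the highest of the 8, and the log2 fold change against HuR-expressing cells was 0.48 in the TIAR line (standard error 0.11, adjusted p = 0.042) and 0.20 in the TIA1 line (standard error 0.11, adjusted p = 0.21). The other heavy chain, SLC3A1 of kidney and gut, was above background on 4 of 8 arrays and was not tested.

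Of the 12 SLC7 genes in the set, 9 were tested and 1 was called. SLC7A5 (chr16:87863907-87863966), the light chain LAT1 that takes up leucine and other large neutral amino acids, had log2 signals of 2.66 and 2.58 in HuR-, 1.57 and 1.59 in TIA1-, 1.86 and 1.85 in TIAR- and 1.84 and 2.01 in GFP-expressing cells. The HuR arrays were the highest and the TIA1 arrays the lowest, while the TIAR arrays lay between the GFP arrays. The log2 fold change against HuR-expressing cells was -1.04 in TIA1-expressing cells (standard error 0.09, adjusted p = 0.0041) and -0.77 in TIAR-expressing cells (0.10, 0.011), the first of which is a 2.05-fold and the second a 1.70-fold difference. The first lies close to the 2-fold threshold, and it was -0.97 with normexp background correction and -0.91 with the authors' values. In TIAR-expressing cells, SLC7A5 was lower and its partner SLC3A2 higher than in HuR-expressing cells, both by less than 2-fold.

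SLC7A1, a carrier of arginine and lysine, had log2 signals of 2.71 and 2.88 in HuR-, 2.00 and 2.23 in TIA1-, 2.77 and 2.35 in TIAR- and 1.36 and 1.85 in GFP-expressing cells. The TIA1 arrays lay below the HuR arrays, by 0.68 on the log2 scale of the group means (standard error 0.13, adjusted p = 0.019), and the TIAR arrays overlapped the HuR arrays (-0.24, adjusted p = 0.36). SLC7A6, a light chain for cationic and neutral amino acids, was lower in TIA1- than in HuR-expressing cells (-0.82, adjusted p = 0.024), at -2.91 and -3.32 against -2.23 and -2.37. SLC7A10, a carrier of small neutral amino acids, was higher (0.51, adjusted p = 0.022) at signals between -4.57 and -3.98 in these lines. SLC7A2, SLC7A7, SLC7A8, SLC7A9 and SLC7A14 did not pass the threshold at any fold against HuR, and SLC7A3, SLC7A4 and SLC7A13 were not tested.

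SLC7A6OS shares its locus with SLC7A6, and 17 bases separate their probes (chr16:68334588-68334647 and chr16:68334665-68334724). Its log2 signals were -0.59 and -0.76 in HuR-, -0.60 and -0.49 in TIA1-, 0.22 and 0.13 in TIAR- and -0.13 and 0.21 in GFP-expressing cells. The TIAR and GFP arrays lay above the HuR and TIA1 arrays, with a log2 fold change of 0.85 in TIAR- against HuR-expressing cells (standard error 0.11, adjusted p = 0.013) and of 0.13 in TIA1- against HuR-expressing cells (adjusted p = 0.40). In that last comparison the neighbouring SLC7A6 had -0.82, as given above.

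**Figure D2:**
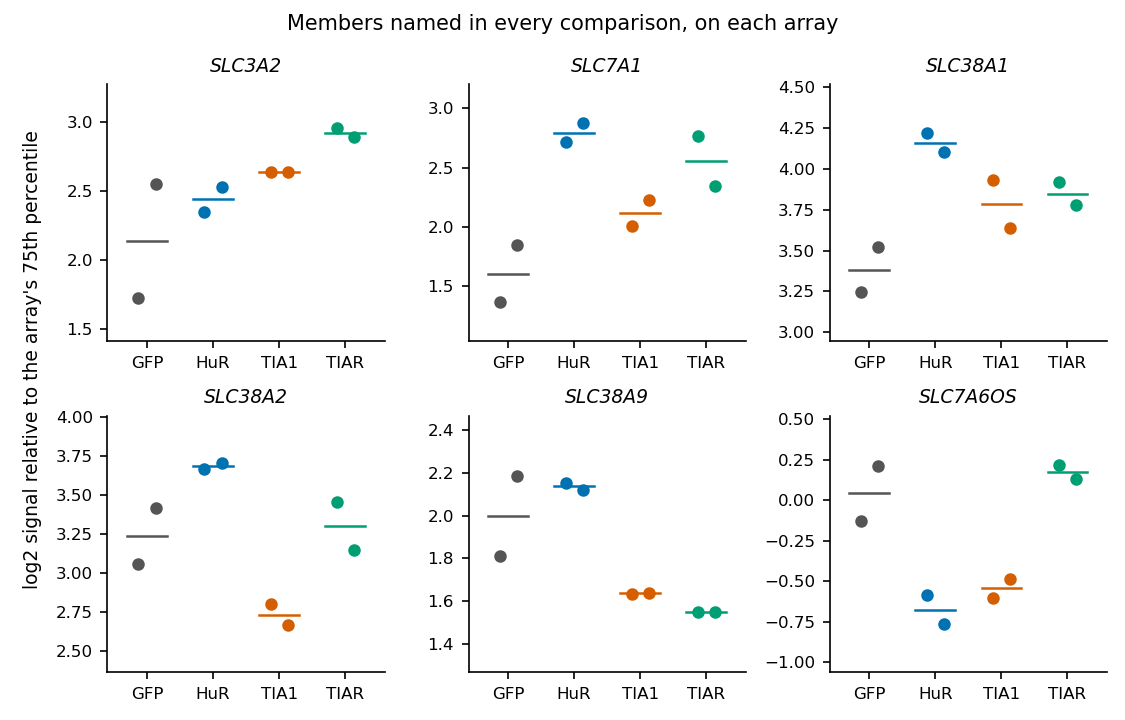
Log2 signal of SLC3A2, SLC7A1, SLC38A1, SLC38A2, SLC38A9 and SLC7A6OS on each array, with 2 points per line (replicates 1 and 2) and a bar at their mean. Each panel has its own y axis. SLC38A9 lies at 1.64 and 1.64 in TIA1- and 1.55 and 1.55 in TIAR-expressing cells, below the other arrays.

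Among the SLC6 carriers, 11 of 19 were tested, 2 were called in TIA1- and 2 in TIAR-expressing cells against HuR. SLC6A9 (chr1:44462162-44462221), the glycine transporter GlyT1, had log2 signals of 3.12 and 3.05 in HuR-, 2.62 and 2.73 in TIAR-, 1.76 and 1.96 in GFP- and 1.47 and 1.64 in TIA1-expressing cells. The lines did not overlap, with the HuR and TIAR lines, which shared a row of the slide, above the GFP and TIA1 lines. On the log2 scale, the TIA1 line differed from the HuR line by -1.53 (standard error 0.11, adjusted p = 0.0030), the TIAR line by -0.41 (0.10, 0.050), and TIAR- against TIA1-expressing cells gave 1.12 (0.13, 0.034). The last of these is the test of the difference between the TIA lines, and it was not called with the replicate block (adjusted p = 0.085) or without any of the 4 arrays. A second, dimmer probe of SLC6A9 gave -1.50, -0.36 and 1.14 in the same comparisons. On that probe the GFP arrays, at -2.45 and -3.70, spanned those of the HuR (-2.78 and -2.72) and TIAR lines (-2.96 and -3.25).

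SLC6A13 (chr12:368280-368339), the GABA transporter GAT2, stood apart in TIAR-expressing cells. Its log2 signals were -0.83 and -0.82 there, -1.71 and -1.67 in TIA1-, -1.89 and -1.81 in HuR- and -2.48 and -2.42 in GFP-expressing cells. The TIAR arrays were the highest, by 1.02 over HuR-expressing cells (standard error 0.09, adjusted p = 0.0070) and by 0.86 over TIA1-expressing cells (0.11, 0.038), and the TIA1 and HuR arrays differed by 0.16 (adjusted p = 0.23). The second probe of SLC6A13 gave 0.77 in TIAR- against HuR-expressing cells and was not called, and the first probe gave 0.88 with quantile normalization. The neighbouring gene SLC6A12 (chr12:299740-299799), a carrier of betaine and GABA, had -5.64 and -5.01 in HuR-, -4.17 and -4.19 in TIA1-, -4.12 and -3.91 in TIAR- and -3.10 and -4.06 in GFP-expressing cells. The HuR arrays were the lowest, and only 1 of them was well above background. SLC6A12 was called higher in TIA1- (1.14, standard error 0.23, adjusted p = 0.022) and TIAR-expressing cells (1.31, 0.24, 0.025), but with the authors' values these were 0.19 (adjusted p = 0.27) and 0.17 (adjusted p = 0.36).

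The other SLC6 genes differed less or by probe. SLC6A16, a member whose substrate is not established, was higher in TIA1- than in HuR-expressing cells without reaching 2-fold (0.92, adjusted p = 0.042). SLC6A15, a carrier of branched-chain amino acids and proline, was called lower in TIA1-expressing cells by its probe 3 (-1.25, adjusted p = 0.0060) but not by its probe 1 (-0.63, adjusted p = 0.081) or probe 2 (-0.55, adjusted p = 0.17). For SLC6A6, the taurine transporter, the first probe fell by 0.56 (adjusted p = 0.020) and the second rose by 0.87 (adjusted p = 0.014) in TIAR- against HuR-expressing cells, neither reaching 2-fold. The 3 probes of SLC6A8, the creatine transporter, gave -0.38, -0.04 and 0.20 in TIA1- against HuR-expressing cells, none past the threshold. SLC6A2, SLC6A3, SLC6A5 and SLC6A18 did not pass the threshold at any fold against HuR, and 8 SLC6 genes were not tested.

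**Figure D3:**
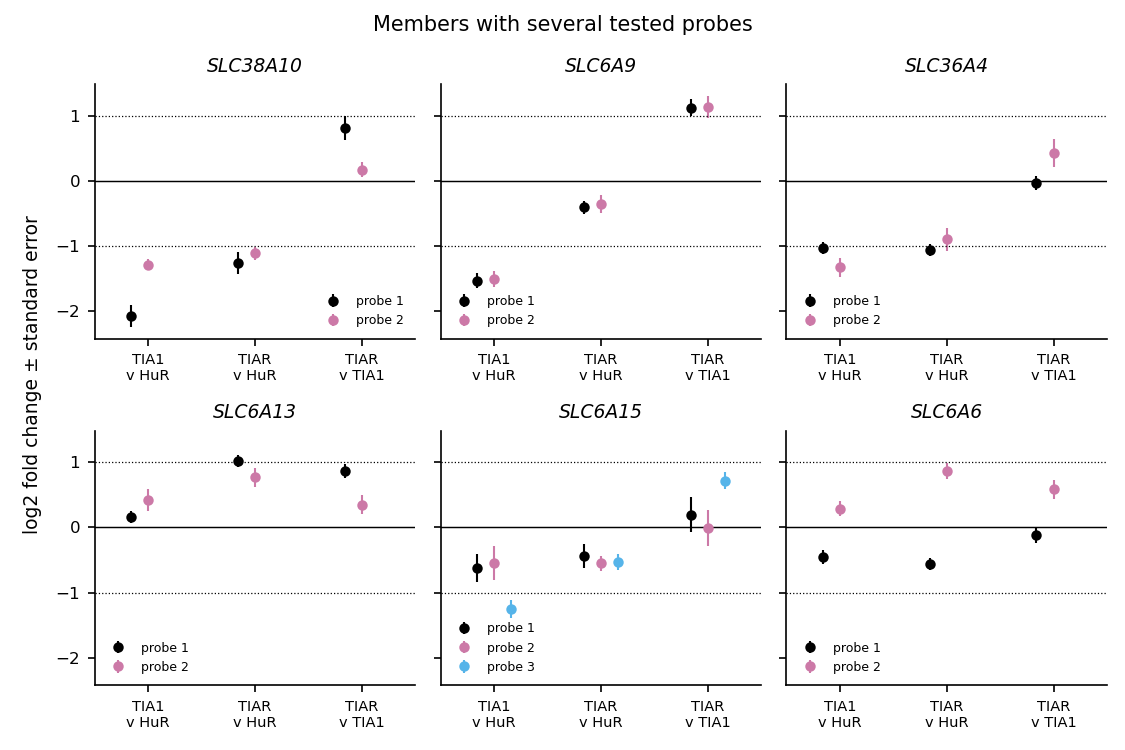
Log2 fold change with its standard error for each tested probe of 6 members with several probes, in 3 comparisons between the HuR, TIA1 and TIAR lines. Dotted lines mark a 2-fold change, and probe 1 has the highest mean signal. The probes of SLC38A10, SLC6A9 and SLC36A4 lie below 0 against HuR throughout, while those of SLC6A6 lie on opposite sides of 0.

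Of the 4 SLC36 carriers, 2 were tested. SLC36A4 (chr11:92880933-92880992) is a carrier of proline and tryptophan. Log2 signals were 1.12 and 1.11 in HuR-, 0.06 and 0.11 in TIA1-, 0.06 and 0.06 in TIAR- and 0.72 and 0.86 in GFP-expressing cells. All arrays of the TIA lines lay below the arrays of the other lines. The log2 fold change against HuR-expressing cells was -1.03 in TIA1- (standard error 0.09, adjusted p = 0.0040) and -1.06 in TIAR-expressing cells (0.09, 0.0064), and the TIA lines differed by -0.03 (standard error 0.11, adjusted p = 0.91). The second probe gave -1.33 (adjusted p = 0.0062) and -0.90 (adjusted p = 0.027), so it was called in the first comparison only. With the authors' values, the first probe gave -0.74 and -0.96. SLC36A1, the lysosomal proton-coupled carrier, was higher in TIAR- than in HuR-expressing cells without reaching 2-fold (0.48, adjusted p = 0.040), and SLC36A2 and SLC36A3 were not tested.

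Of the 11 SLC38 genes, 9 were tested, and SLC38A10 was called lower while SLC38A3 and SLC38A4 were called higher in both TIA lines than in HuR-expressing cells. SLC38A10 (chr17:79218836-79218895) had log2 signals of 1.93 and 2.18 in HuR-, 1.85 and 2.33 in GFP-, 0.95 and 0.63 in TIAR- and -0.19 and 0.15 in TIA1-expressing cells. The HuR and GFP arrays overlapped, and the arrays of both TIA lines lay below all of them. The log2 fold change against HuR-expressing cells was -2.07 in TIA1- (standard error 0.17, adjusted p = 0.0035) and -1.26 in TIAR-expressing cells (0.17, 0.013), which are differences of 4.20- and 2.40-fold, and the TIA lines differed by 0.81 (standard error 0.19, adjusted p = 0.096). The second probe of SLC38A10 was called in both comparisons, at -1.28 (adjusted p = 0.0029) and -1.11 (adjusted p = 0.0064). In TIAR- against HuR-expressing cells the first probe was not called when either HuR array was left out (adjusted p of 0.083 and 0.098).

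SLC38A4 (chr12:47159077-47159136), a system A carrier known from liver, had log2 signals of -4.36 and -5.00 in TIA1- and -4.65 and -4.95 in TIAR-expressing cells. In HuR- and GFP-expressing cells this probe was not well above background on any array, with values from -7.33 to -6.59. It was at least 2.51-fold higher in TIA1- and at least 2.30-fold higher in TIAR- than in HuR-expressing cells, a bound against the lowest signal that counted as above background on each HuR array. A second probe of SLC38A4 was well above background on HuR replicate 1 only, at -2.15, with values from -8.18 to -7.15 on the other arrays, and was not tested. SLC38A3, a glutamine carrier of liver, kidney and brain, had -5.60 and -5.28 in HuR-, -4.21 and -4.01 in TIA1-, -4.34 and -4.41 in TIAR- and -3.37 and -5.52 in GFP-expressing cells. The TIA arrays lay between the GFP arrays and above the HuR arrays, and the log2 fold change against HuR was 1.33 in TIA1- (standard error 0.16, adjusted p = 0.0068) and 1.06 in TIAR-expressing cells (0.15, 0.013). Both are dim, and with normexp background correction the fold changes against HuR were 0.89 and 0.87 for SLC38A4 and 0.77 and 0.74 for SLC38A3, all under 2-fold. The liver marker ALB, given above, was higher in the same lines, and its part in these results was not tested.

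SLC38A2, the system A carrier that cells raise when amino acids are scarce, was lower in TIA1-expressing cells and fell short of 2-fold. Its log2 signals were 3.67 and 3.70 in HuR-, 2.80 and 2.67 in TIA1-, 3.46 and 3.15 in TIAR- and 3.06 and 3.41 in GFP-expressing cells. The TIA1 arrays were the lowest of the 8, and the log2 fold change against HuR was -0.95 in TIA1- (standard error 0.10, adjusted p = 0.0055) and -0.38 in TIAR-expressing cells (0.14, 0.11). Its second probe gave -0.77 in TIA1- (adjusted p = 0.049) and also -0.77 in TIAR-expressing cells (adjusted p = 0.16). On that probe the TIA1 arrays (0.91 and 1.48) overlapped the TIAR (0.71 and 1.68) and GFP arrays (1.00 and 1.35). SLC38A1, another system A carrier, had 4.22 and 4.11 in HuR-, 3.93 and 3.64 in TIA1-, 3.92 and 3.78 in TIAR- and 3.25 and 3.52 in GFP-expressing cells, with -0.38 (adjusted p = 0.095) and -0.31 (adjusted p = 0.10) against HuR. Its dim probe 3 gave 0.43 in TIA1- against HuR-expressing cells (adjusted p = 0.34).

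SLC38A9, the arginine sensor of the lysosome that signals to mTORC1, was lower in both TIA lines by less than 2-fold. It had log2 signals of 2.16 and 2.12 in HuR-, 1.64 and 1.64 in TIA1-, 1.55 and 1.55 in TIAR- and 1.81 and 2.19 in GFP-expressing cells. No array of the TIA lines reached the level of any other array, and the log2 fold change against HuR was -0.50 in TIA1- (standard error 0.09, adjusted p = 0.017) and -0.59 in TIAR-expressing cells (0.09, 0.017). SLC38A7, a lysosomal glutamine carrier, was higher by 0.45 (adjusted p = 0.033) and 0.69 (adjusted p = 0.017), and SLC38A5, a carrier of glutamine and serine, was lower in TIA1-expressing cells by 0.47 on the log2 scale (adjusted p = 0.033). In the SLC43 family, SLC43A1, a system L carrier, was lower in TIA1- than in HuR-expressing cells (-0.52, adjusted p = 0.016), SLC43A2 did not pass the threshold, and SLC43A3 was not tested.

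**Figure D4:**
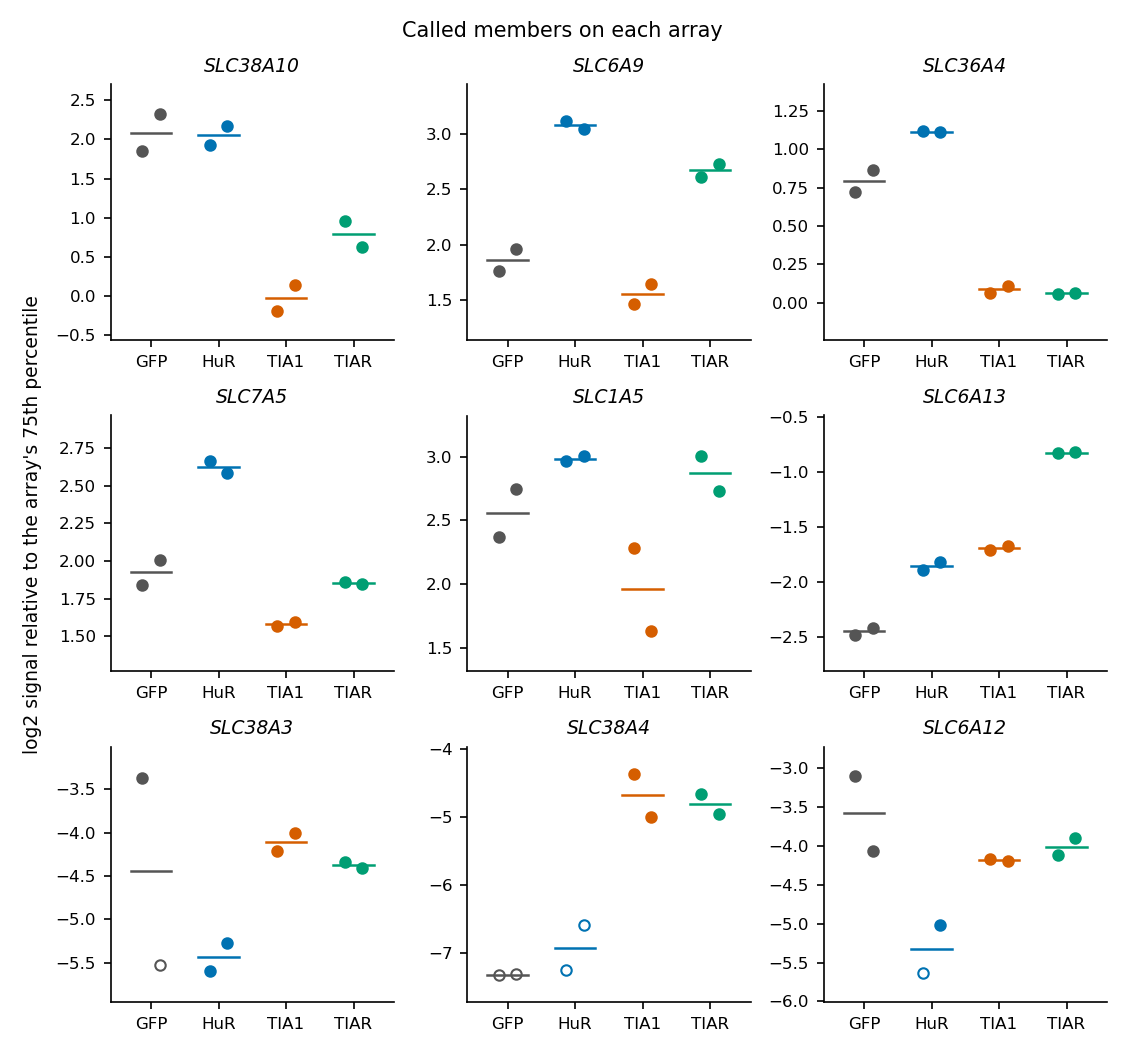
Log2 signal of the 9 members called in TIA1- or TIAR- against HuR-expressing cells on each array, with 2 points per line (replicates 1 and 2) and a bar at their mean. Open points were not well above background, and each panel has its own y axis. In SLC38A10 and SLC36A4 the arrays of both TIA lines lie below all GFP and HuR arrays.

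Against GFP-expressing cells, limma called 0 of 40 members in each of the TIA1, TIAR and HuR lines, as it called 0.0% of all genes in each. At an unadjusted p under 0.05, 8 members passed in the TIA1, 9 in the TIAR and 9 in the HuR line. The share of all genes at that threshold was not counted, so these counts show nothing particular to the members. The methods' paired t-test with Benjamini-Hochberg adjustment called 0 in each, but with only 2 pairs it could hardly call any. The median log2 fold change of the members was -0.22 in the TIA1, -0.02 in the TIAR and 0.02 in the HuR line, against 0.02, 0.0 and -0.03 over all genes. Under quantile normalization the median of all probes moved to 0.24, 0.23 and 0.25 in these comparisons, so that directions near 0 depend on the scaling. In the TIA1, TIAR and HuR lines in that order, the log2 fold change against GFP was 0.50, 0.79 and 0.30 for SLC3A2, -0.34, -0.07 and 0.70 for SLC7A5, and -0.60, 0.31 and 0.42 for SLC1A5. It was 0.51, 0.95 and 1.19 for SLC7A1, 0.40, 0.46 and 0.78 for SLC38A1, and -0.50, 0.07 and 0.45 for SLC38A2. It was -0.36, -0.45 and 0.14 for SLC38A9 and -0.59, 0.13 and -0.72 for SLC7A6OS. Adjusted p-values of these members were between 0.21 and 0.91.

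With GFP replicate 1 left out, and the lone GFP array assumed to vary like the arrays of the other line, 6 members were called in the TIA1 line (3 higher and 3 lower), 6 in the TIAR line (4 and 2) and 4 in the HuR line (3 and 1) against GFP. Of all genes tested in these fits, 7.26% were called higher and 4.28% lower in the TIA1, 4.93% and 1.54% in the TIAR and 4.39% and 4.11% in the HuR line. SLC38A10 was lower in the TIA1 (-2.35, adjusted p = 0.022) and TIAR lines (-1.53, adjusted p = 0.048), and SLC1A1 was lower in both (-1.26 and -1.15). SLC7A6 was called lower in the TIA1 line (-1.30), and SLC6A13 was called higher in the TIAR line (1.59). In HuR-expressing cells, SLC6A9 was called higher (1.12) and SLC38A7 lower (-1.05). The other called members were SLC38A3 and SLC38A4 in the TIA lines, SLC38A5 in the HuR line and SLC6A18 in all 3 lines. SLC6A18 is a relative of kidney neutral amino acid carriers. None of these was well above background on GFP replicate 2, so they entered these fits only through the other line. Their calls, counted above, are descriptions, and they have only a bound against GFP. SLC38A3 was at least 2.55-fold (TIA1) and 2.12-fold (TIAR) higher, SLC38A4 at least 1.72- and 1.58-fold, SLC38A5 at least 2.02-fold, and SLC6A18 at least 2.18-fold (TIA1), 1.87-fold (TIAR) and 2.03-fold (HuR).

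With GFP replicate 2 left out instead, 20, 18 and 21 members were called in the TIA1, TIAR and HuR lines, of which 18, 14 and 18 were lower. In these fits the median log2 fold change of all probes was -0.67, -0.63 and -0.77. Members could enter these fits through GFP replicate 1 alone, the array with the most probes above background, so the calls in them are descriptions. Of all genes tested, 39.7%, 37.0% and 43.5% were called lower and 4.62%, 3.67% and 2.92% higher.

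Other genes of amino acid supply were counted from 3 lists. Of 26 genes of the ATF4 response, all tested, 0 were called higher and 2 lower in TIA1- and 2 higher and 1 lower in TIAR- against HuR-expressing cells, with median log2 fold changes of -0.18 and 0.06. Of all genes, 8.55% were called higher and 4.67% lower in the first of these comparisons and 7.47% and 2.75% in the second. STC2, a secreted glycoprotein, had log2 signals of -0.27 and -0.13 in HuR-, -1.75 and -1.28 in TIA1- and -1.49 and -1.29 in TIAR-expressing cells, and was called lower in both TIA lines (-1.32, adjusted p = 0.010 and -1.19, adjusted p = 0.0081). CTH, an enzyme of cysteine synthesis, was called lower in the TIA1 line (-1.21, adjusted p = 0.0044). NUPR1, a stress-induced chromatin protein, and DDIT3, the transcription factor CHOP, were called higher in the TIAR line (1.56, adjusted p = 0.0055 and 1.08, adjusted p = 0.012). NUPR1 had 3.38 and 3.37 in TIAR- and 1.45 to 2.03 on the other arrays, and it was the only gene of this list called between the TIA lines (1.53, adjusted p = 0.022), where 1.33% of all genes were called higher and 1.02% lower. The list's median in that comparison was 0.33, and the members' was 0.16, against -0.02 over all genes.

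Of 36 genes of amino acid sensing at the lysosome, all tested, 0 were called higher and 3 lower in TIA1- and 2 higher and 2 lower in TIAR- against HuR-expressing cells, with a median of -0.04 in both, and 0 were called between the TIA lines. The shares of all genes called are those given for the ATF4 list, 8.55% higher and 4.67% lower in TIA1- and 7.47% and 2.75% in TIAR-expressing cells. C12orf66, a subunit of the KICSTOR complex, had log2 signals of -1.43 and -1.47 in HuR-, -3.21 and -3.56 in TIA1- and -2.80 and -2.53 in TIAR-expressing cells, a fold change of -1.93 (adjusted p = 0.0033) and -1.22 (adjusted p = 0.0088). LAMTOR2, a subunit of the Ragulator complex to which SLC38A9 binds, was called lower in both lines (-1.15, adjusted p = 0.0050 and -1.07, adjusted p = 0.0079), and NPRL3, of the GATOR1 complex, in the TIA1 line (-1.27, adjusted p = 0.0033). FLCN, which acts on the Rag GTPases, and GATSL3, which senses arginine, were called higher in the TIAR line (1.26, adjusted p = 0.0096 and 1.08, adjusted p = 0.0069). Of 19 other amino acid and peptide carriers, 13 and 14 were tested against HuR, with a median of 0.19 and 0.10, and SLC15A1 was the only one called. SLC15A1, the intestinal peptide transporter, had -6.31 and -5.06 in HuR-, -3.57 and -3.26 in TIA1-, -1.74 and -1.80 in TIAR- and -2.31 and -1.96 in GFP-expressing cells. It was called higher in both TIA lines than in HuR-expressing cells (2.28, adjusted p = 0.021 and 3.92, adjusted p = 0.0094). SLC15A1 was not above background on HuR replicate 1, so it entered these tests only through the TIA lines and these calls are descriptions. Between the TIA lines it was called higher in the TIAR line (1.64, adjusted p = 0.026). Of all 3 lists, 0 genes were called against GFP, as 0.0% of all genes were.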

How the data were processed

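FT293 RNA was measured on 8 one-colour arrays, 2 per line, on 1 slide. The authors deposited scanner output, in which processed signals are intensity values corrected for background and trends within the array. Their deposited table holds log2 values after quantile normalization, the TIAR arrays having a distribution of their own. Here, outlier spots were dropped, log2 signals were scaled to the array's 75th percentile and a probe's spots averaged. The arrays of the lines compared were fitted with limma 3.58.1 in R 4.3.3, and figures were drawn with matplotlib 3.10.9. On simulated data, limma recovered 148 of 200 changed probes among 28717 for TIA1 against HuR (1 false call) and 141 of 200 among 29052 for TIAR against HuR (3 false calls). All planted changes were well beyond 2-fold and the other probes had none, so recovery of changes near the threshold was not tested. The number of arrays limits the precision.

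The members, lists and tests were chosen with earlier results of these data known. Named by rule are members called against HuR, 8 members in every comparison, the expressed proteins, the 3 largest called genes of each list and members whose probes disagree. Other members were named after their values were seen. Some genes of these families are not reported here. Positions are on hg19 as in the array files, and probes were not assigned to exons. By accession, 79 of 86 probes matched RefSeq, all 79 with the same symbol. Alternatives were normexp (offset 50), quantile normalization, the authors' values, no filter or a stricter one, all 8 arrays in 1 fit, a replicate block, the methods' paired t-test, any probe of a gene, leaving out each array and, added after seeing the data, any fold.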

Additional observations from a re-analysis of the deposited data

How the results depend on the processing

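Counts of called members depended on the processing. Apart from the shares given above, shares of all genes called under these settings were not counted. Whether the changes are particular to the members was not tested. For TIA1 against HuR, 8 members were called, against 3 with normexp, 3 with the authors' values, 0 with the methods' paired t-test after adjustment (4 at an unadjusted p under 0.05) and 20 at any fold, and 2 to 9 when 1 array was left out. For TIAR against HuR, 6 were called, against 2 with normexp, 3 with quantile normalization, 1 with the authors' values, 0 with the paired t-test (2 unadjusted) and 16 at any fold, and 0 to 6 when 1 array was left out. For TIAR against TIA1, the 1 call became 0 without the filter on dim probes, with the replicate block, with the paired t-test and without any 1 array, and 2 at any fold. Against GFP, the 0 calls became 4 (TIA1), 3 (TIAR) and 3 (HuR) with all 8 arrays in 1 fit, and 0 to 20, 0 to 18 and 0 to 21 when 1 array was left out. Between lines, deviations of same-numbered replicates from their own line mean had correlations of -0.09 to 0.18. Replicates were therefore not taken as pairs. The paired t-test rests on 2 pairs, so its 0 calls after adjustment were close to fixed in advance and say little about the members. Its lost calls are among those counted over the settings. With the replicate block, 8 (TIA1) and 6 (TIAR) members were called against HuR and 0 against GFP. Of the called members, SLC38A10 and SLC6A9 in TIA1 against HuR held in 11 of 12 settings, all but the paired t-test, while SLC6A12 was lost in 9 of 11 (TIA1) and 10 of 11 (TIAR). Over the settings, 98 calls held and 78 were lost. Of the values not called, 27 became calls in the same direction and SLC38A3 in TIAR against GFP became a call in the other direction without GFP replicate 2 (-1.01 to 1.15 when 1 array was left out). Quantile normalization moved the median of all probes in TIA1 against HuR from 0.09 to -0.02. The causes were not tested. Signals close to background limit SLC38A3, SLC38A4 and SLC6A12.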
